A study of Mus musculus with 14 samples.

Results

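The 39 mitosis and G2/M genes described here are rows of a count table of 55291 gene symbols, chosen by name for their part in entry into mitosis, chromosome segregation and cell division. All 39 were found and all 39 passed the filter on low counts, which kept 17933 genes for testing. The RNA was that of lung tumor nodules, snap frozen, from mice of strain C57BL/6 and genotype HER2 Exon20YVMA, an insertion of the residues YVMA in the kinase domain of the receptor HER2. All 5 groups share this strain, tissue and genotype. Nodules had acquired resistance to mobocertinib given alone (resistant, n = 3), or came from long-term treatment with the combination of both drugs (n = 3), T-DM1 (n = 3), mobocertinib (n = 3) or vehicle (n = 2). Mobocertinib (TAK-788) inhibits the kinases EGFR and HER2 when they carry exon 20 insertions. T-DM1 is the anti-HER2 antibody trastuzumab linked to a maytansine derivative that blocks microtubules, so its payload acts on dividing cells. The sources used here do not state the promoter that drives the mutant allele, the age of the mice, doses, treatment times, the number of animals or whether the resistant group was still on drug. P-values therefore measure the spread between these libraries, which may be technical in part.

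Cells enter mitosis when cyclin A and cyclin B activate the kinase Cdk1, with help from the phosphatase Cdc25c and the kinases Plk1 and Aurka. The spindle assembly checkpoint holds the cell until every kinetochore is attached to microtubules. Cdc20 then activates the anaphase-promoting complex, which with its ubiquitin-conjugating enzyme Ube2c marks cyclin B and securin for destruction. Transcripts of these genes peak in G2 and mitosis under the transcription factors B-MYB and FOXM1 and the MuvB complex, and they are the usual RNA markers of dividing cells, as is Mki67, which encodes the Ki-67 antigen. HER2 signalling through ERK and AKT drives cells into this cycle. In bulk tissue, fewer dividing cells and less RNA per dividing cell cannot be told apart.

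Library totals were 19344015 to 31287261 counts, and no member had 0 counts in any library. The vehicle libraries stood apart from the other 12: messenger RNAs under 1 kb took 25.7% and 30.9% of their counts, while the drug-treated and resistant libraries had 6.79% to 11.9%. Messenger RNAs over 5 kb made up 6.13% and 4.51% of the vehicle counts, below the 12.6% to 20.1% of every other library. Their TMM scaling factors were 0.677 and 0.542, while the other libraries had 0.988 to 1.23, so normalized levels in vehicle depend on the scaling more than those elsewhere. Epithelial markers (6 of 6 above 0) summed to 1480 to 5570 CPM, counts scaled to the normalized library size, in all libraries. Alveolar type 2 markers summed to 8260 to 72800 CPM in the drug-treated and resistant libraries and to 137000 and 205000 CPM in vehicle. Gene by gene, 5 of 5 were lower than vehicle in mobocertinib, T-DM1 and combination nodules, and 4 of 5 in resistant nodules. Only 1 of the 5 had an edgeR adjusted p below 0.05 in each of these comparisons. Of all tested genes, 14.9% to 19.0% were lower at that threshold. Endothelial markers summed to 269 to 765 CPM in the drug-treated and resistant libraries and to 101 and 149 CPM in vehicle. These differences and the treatment effects against vehicle cannot be told apart.

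Promoters are shown for the genes with both kinds of cell-cycle promoter element and the smallest p in mobocertinib against vehicle, since the members moved together. The table of RefSeq promoters on GRCm38.p6, which spans 250 bases before to 50 bases after each start, held 31 of the 39 members. The CHR element, searched as TTTGAA or TTCGAA on either strand, recruits MuvB complexes, and the CCAAT box, searched on either strand, binds NF-Y. A CHR match was present in 25 of 31 members (80.6%), against 21.7% of the 27025 genes in the table. CCAAT was present in 24 members (77.4%) and 41.1% of all genes, and both were present in 22 members (71.0%) and 8.61% of all genes. At least 2 CCAAT matches were held by 18 members (58.1%) and by 13.3% of all genes. These windows lie at chr4:118437294-118437593 on the minus strand for Cdc20, chr2:164769679-164769978 on the plus strand for Ube2c, chr10:69352863-69353162 on the minus strand for Cdk1 and chr6:124829926-124830225 on the plus strand for Cdca3, an adaptor of cell-cycle protein degradation. Each is written 5′ to 3′ on the gene's strand, with matches in capitals (TTCAAA and ATTGG are the elements read on the other strand).
Cdc20: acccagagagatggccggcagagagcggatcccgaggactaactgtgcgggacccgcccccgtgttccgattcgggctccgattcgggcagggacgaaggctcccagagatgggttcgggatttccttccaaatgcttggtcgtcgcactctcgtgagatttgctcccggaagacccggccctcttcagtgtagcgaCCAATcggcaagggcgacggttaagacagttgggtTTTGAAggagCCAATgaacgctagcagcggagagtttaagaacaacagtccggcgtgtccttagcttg
Ube2c: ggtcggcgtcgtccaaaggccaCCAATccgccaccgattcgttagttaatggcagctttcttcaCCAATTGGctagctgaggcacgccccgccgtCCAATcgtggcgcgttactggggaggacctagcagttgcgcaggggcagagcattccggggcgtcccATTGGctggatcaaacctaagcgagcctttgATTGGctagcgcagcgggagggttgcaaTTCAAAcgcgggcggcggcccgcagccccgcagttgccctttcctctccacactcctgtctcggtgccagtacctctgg
Cdk1: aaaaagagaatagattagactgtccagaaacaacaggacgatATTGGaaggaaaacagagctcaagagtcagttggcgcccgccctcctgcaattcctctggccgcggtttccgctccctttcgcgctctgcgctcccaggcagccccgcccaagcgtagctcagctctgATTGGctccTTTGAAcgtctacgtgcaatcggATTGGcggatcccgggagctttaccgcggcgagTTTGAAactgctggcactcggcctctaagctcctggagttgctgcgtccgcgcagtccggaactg
Cdca3: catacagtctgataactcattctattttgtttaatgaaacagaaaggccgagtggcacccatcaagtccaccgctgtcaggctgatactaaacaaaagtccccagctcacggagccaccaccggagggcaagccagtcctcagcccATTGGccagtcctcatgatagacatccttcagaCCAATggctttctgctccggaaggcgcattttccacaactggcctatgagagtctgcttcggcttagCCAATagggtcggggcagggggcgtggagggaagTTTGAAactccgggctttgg
In Cdc20, 1 CHR match begins 18 bases before the start, between 2 CCAAT matches at 53 and 8 bases before it. Ube2c holds 6 CCAAT matches, of which 2 overlap, and 1 CHR match. Cdk1 has 2 CHR and 3 CCAAT matches, while the single CHR match of Cdca3 lies 30 bases after the start. Birc5, Mad2l1, Nuf2 and Nusap1 were called lower in mobocertinib nodules with neither match in this window. A match is a description of the letters, and binding was not measured.

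On the normalized scale, the members were lowest in mobocertinib nodules and highest in vehicle or T-DM1 nodules. The group mean was lowest in mobocertinib for 38 members and in resistant nodules for Cenpa. It was highest in vehicle for 21 members, in T-DM1 for 17 and in resistant nodules for Anln. Summed over the 39 genes, levels were 136, 225.1 and 102.5 CPM in resistant libraries 1 to 3, 148, 98.6 and 107.7 CPM in the combination, 499, 294 and 295 CPM in T-DM1, 49.8, 118 and 56.2 CPM in mobocertinib, and 424 and 387 CPM in vehicle. T-DM1 and vehicle stood well above the other 3 groups, and no resistant or combination library reached them. In TPM, the length-scaled unit of the other deposited table, the sums were 101, 128 and 60.3 in resistant nodules, 100.1, 69.0 and 77.3 in the combination, 301.5, 193 and 198 in T-DM1, 29.6, 86.7 and 42.4 in mobocertinib, and 126 and 89.3 in vehicle. In TPM every T-DM1 library was above every library of the other groups, while in CPM T-DM1 libraries 2 and 3 were below both vehicle libraries. Every mobocertinib library stayed below both vehicle libraries in both units, but the place of vehicle relative to T-DM1, the combination and resistant nodules depended on the unit. Compared per length, Cdk1, Ube2c, Cenpa and Mad2l1 were among the most abundant members, with 23.5 TPM for Cdk1 in T-DM1 as the highest group mean, and the median member had 1.92 TPM in resistant, 1.60 TPM in combination, 4.13 TPM in T-DM1, 0.803 TPM in mobocertinib and 1.19 TPM in vehicle nodules.

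**Figure D1:**
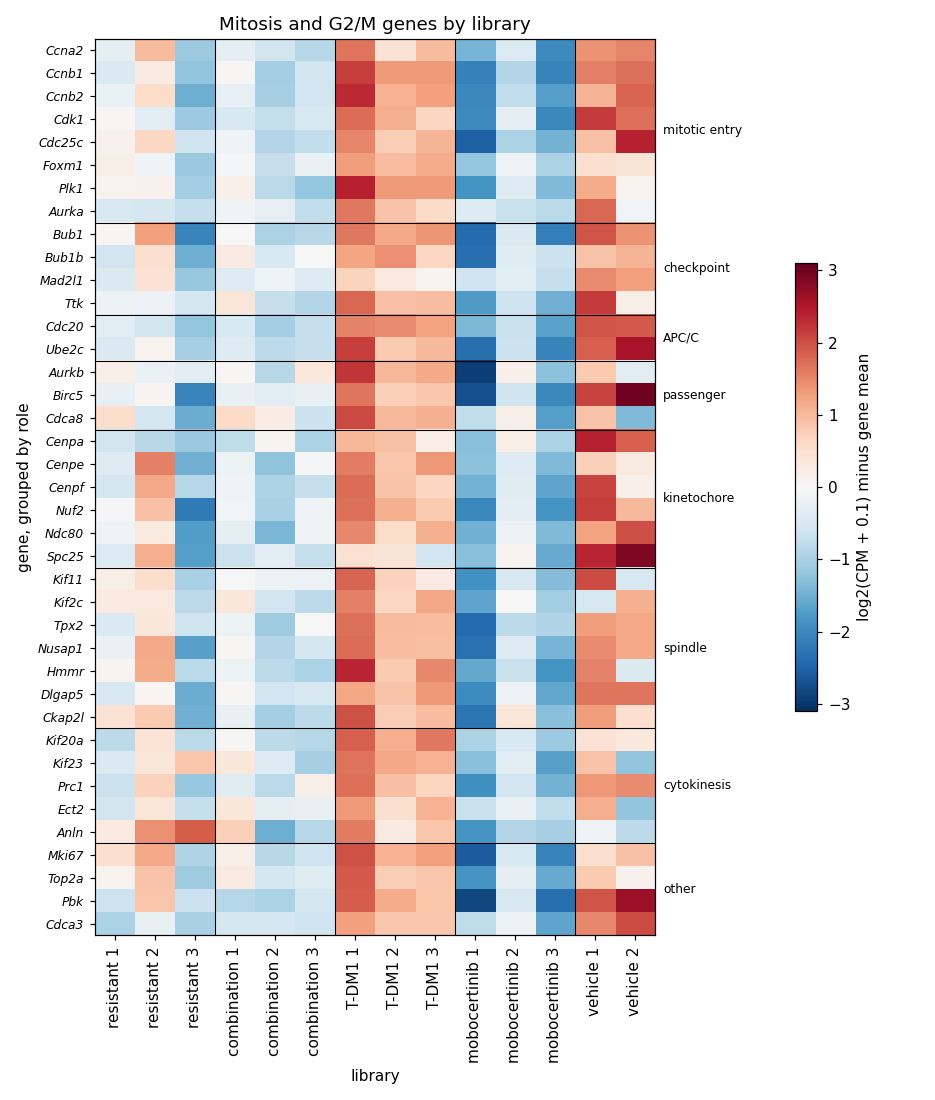
Level of each of the 39 genes (rows, grouped by role) in each of the 14 libraries (columns), as log2(CPM + 0.1) centred on each gene. The T-DM1 libraries are above the mean for nearly all genes and mobocertinib libraries 1 and 3 are far below it, while in resistant library 3 Anln and Kif23 stand out against low neighbours; on TPM the vehicle columns would be lower.

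Mobocertinib against vehicle asks how nodules under the inhibitor differ from untreated ones. Of the 39 genes, 28 were called lower and 0 higher by edgeR's quasi-likelihood test at an adjusted p below 0.05, where 16.1% of all tested genes were called lower and 16.8% higher. All 39 log2 fold changes were negative, with a median of −2.55 and a range of −4.23 to −0.76, and the median of all tested genes was 0.09. In 33 genes every mobocertinib library was below both vehicle libraries, as in 28.3% of all tested genes. With correction for transcript length and GC content 31 were called lower, against 15.2% of all genes, with a median of −2.67. From log2(TPM + 1), 6 of 38 tested members were called lower, where 58.1% of all genes were called in either direction. The member median was −0.39 beside 1.11 over all genes. Without mobocertinib library 3, 17 were called lower, where 22.8% of all genes were called in either direction. The calls lost there were those of Plk1, Aurka, Bub1, Bub1b, Cenpf, Nuf2, Ndc80, Kif11, Nusap1, Hmmr and Mki67. Without vehicle library 1 the member median was −2.32, and without vehicle library 2 it was −2.45.

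The anaphase-promoting complex pair was the most sharply separated. Cdc20 (chromosome 4, 118432901 to 118437352, mm10) had 2.29, 3.76 and 1.88 CPM in mobocertinib libraries 1 to 3 and 24.2 and 23.3 CPM in vehicle. Its level in mobocertinib nodules was 0.112 times that in vehicle, a log2 fold change of −3.16 ± 0.375 (SE; edgeR adjusted p = 0.000268). Both groups were tight and far apart. Ube2c had 0.897, 3.06 and 1.10 CPM in mobocertinib and 18.0 and 29.4 CPM in vehicle (−3.80 ± 0.593, edgeR adjusted p = 0.000753), with mobocertinib library 2 above its 2 companions but still far below vehicle. For Ube2c, 22.8% of exon bases are shared with Tnnc2, and the sources used here do not state whether counting used strand, so its counts are less certain; the same holds for Ccna2 (12.5%, Exosc9), Cdc25c (12.7%, Gm3550), Kif20a (29.3%, Cdc23) and Prc1 (11.1%, Rccd1).

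Among the 8 genes of mitotic entry, 7 were called lower, with a median log2 fold change of −2.79 over all 8. Cdk1, the kinase that triggers mitosis, had 1.89, 6.31 and 1.85 CPM in mobocertinib libraries and 34.9 and 25.4 CPM in vehicle, a change of −3.16 ± 0.541 (edgeR adjusted p = 0.00123). Ccnb1 and Ccnb2, its cyclin B partners, changed by −3.40 ± 0.635 (edgeR adjusted p = 0.00198) and −2.95 ± 0.644 (edgeR adjusted p = 0.00466). Ccna2, cyclin A2, changed by −2.63, and the kinases Plk1 and Aurka by −1.88 and −1.82. Cdc25c, the phosphatase that activates Cdk1, was scarce: it had 0.0498, 0.332 and 0.213 CPM in mobocertinib and 1.501 and 4.38 CPM in vehicle, and the first of these values is a single count (−3.82 ± 0.780, edgeR adjusted p = 0.00323). Foxm1, the transcription factor of the G2/M program, had 1.40, 3.06 and 1.64 CPM in mobocertinib and 4.74 and 4.38 CPM in vehicle, which did not pass (−1.16 ± 0.491, edgeR adjusted p = 0.0855).

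All 4 checkpoint genes fell. Bub1, a kinase that loads checkpoint proteins on kinetochores, had 0.0996, 0.664 and 0.142 CPM in mobocertinib and 3.96 and 2.68 CPM in vehicle (−3.42 ± 0.966, edgeR adjusted p = 0.0173). Ttk, the kinase that starts checkpoint signalling, changed by −3.19 ± 0.805 (edgeR adjusted p = 0.00995). Its vehicle libraries were far apart, at 2.94 and 0.669 CPM, with 0.332 CPM in mobocertinib library 2. Mad2l1 and Bub1b, parts of the complex that holds Cdc20 inactive, changed by −1.94 ± 0.401 and −1.92 ± 0.617 (edgeR adjusted p = 0.00341 and 0.0306).

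Of the 6 centromere and kinetochore genes, 5 were called lower and Cenpe, a kinetochore motor, did not pass (−1.57 ± 0.771, edgeR adjusted p = 0.132). Spc25, a subunit of the NDC80 complex that binds microtubules, had 0.996, 2.77 and 0.818 CPM in mobocertinib and 13.6 and 19.8 CPM in vehicle (−3.45 ± 0.765, edgeR adjusted p = 0.00508). Its partners Nuf2 and Ndc80 changed by −3.07 and −2.70. Cenpa, the histone H3 variant that marks centromeres, had 2.74, 7.86 and 3.45 CPM in mobocertinib and 36.6 and 25.2 CPM in vehicle (−2.72 ± 0.486, edgeR adjusted p = 0.00155). Cenpf, a large kinetochore protein, changed by −2.56 ± 0.757, though its vehicle libraries had 11.6 and 2.97 CPM and so differed from each other more than the lower of them did from mobocertinib library 2, at 2.03 CPM.

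All 3 genes of the passenger complex had negative changes, and 1 of them was called lower, where 16.1% of all tested genes were. Birc5, the gene of survivin, had the largest fall of all members, with 0.548, 2.66 and 0.960 CPM in mobocertinib and 18.2 and 34.3 CPM in vehicle (−4.23 ± 0.704, edgeR adjusted p = 0.00105). Its partner Aurkb, the kinase of the complex, had 0.149, 1.99 and 0.675 CPM in mobocertinib and 3.18 and 1.41 CPM in vehicle, and Cdca8, borealin, had 1.40, 2.77 and 0.675 CPM and 4.56 and 0.892 CPM in the same groups. Libraries of both genes overlapped between the groups, and neither passed (−1.28 ± 0.806 and −0.76 ± 0.812, edgeR adjusted p = 0.237 and 0.490).

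Of the 7 spindle genes, 5 were called lower, by 2.32 to 2.81 on the log2 scale. They were Kif11 (the motor that separates the poles), Tpx2 (an activator of Aurka), Nusap1, Hmmr and Dlgap5. Kif11 libraries overlapped between the groups, with 11.2 and 1.857 CPM in vehicle and 1.882 CPM in mobocertinib library 2. Hmmr had 4.68 and 1.11 CPM in vehicle and 0.923 CPM in mobocertinib library 2. Kif2c, a microtubule depolymerase, and Ckap2l did not pass (−1.31 ± 0.687 and −1.66 ± 0.799). Cytokinesis genes had the median nearest to 0 of all roles, −1.18, and 1 of 5 was called. That share was near the 16.1% of all tested genes called lower. Prc1, which bundles the central spindle, had 1.94, 4.91 and 2.67 CPM in mobocertinib and 19.0 and 20.7 CPM in vehicle (−2.64 ± 0.571, edgeR adjusted p = 0.00442). Kif20a, Kif23, Ect2 and Anln had changes of −1.26, −1.18, −0.95 and −0.81 that did not pass. Vehicle library 2 was low in Kif23 and Ect2. Ect2, an activator of RhoA at the cleavage furrow, had 2.59, 3.65 and 2.45 CPM in mobocertinib and 9.42 and 1.78 CPM in vehicle, where the second value was the lowest of all 14 libraries. Among the remaining genes Pbk, a mitotic kinase, Cdca3 and Mki67 were called lower. Mki67 had 1.54, 6.97 and 2.24 CPM in mobocertinib and 13.8 and 18.4 CPM in vehicle (−2.16 ± 0.651, edgeR adjusted p = 0.0230), and Top2a, the topoisomerase of chromosome condensation, changed by −1.60 ± 0.600 and did not pass (edgeR adjusted p = 0.0562).

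**Figure D2:**
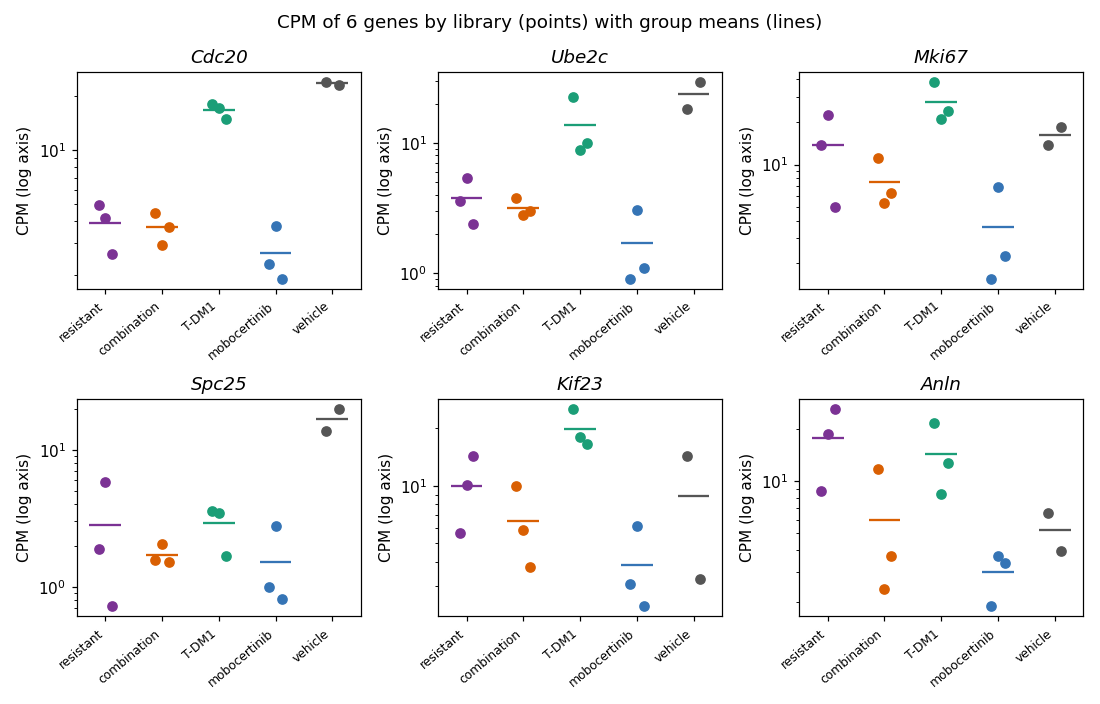
CPM on a log axis for 6 genes, with 1 point per library and a line at the group mean (resistant, combination, T-DM1 and mobocertinib n = 3, vehicle n = 2). Cdc20 lies between 14.85 and 18.2 CPM in T-DM1 and between 1.88 and 3.76 CPM in mobocertinib nodules, Spc25 is higher in both vehicle libraries than in any other, and Anln is highest in resistant library 3, at 26.1 CPM.

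T-DM1 against vehicle asks the same of the antibody-drug conjugate. Of the 39 genes, 2 were called lower and 0 higher, where 14.9% of all tested genes were called lower, 16.7% higher and 31.7% in either direction. Fold changes lay on both sides of 0 (18 positive, 21 negative, median −0.07, all tested genes 0.18), and in 9 genes the T-DM1 libraries were all above vehicle, in 8 all below, as in 32.2% and 26.0% of all genes. Spc25 had 3.61, 3.47 and 1.69 CPM in T-DM1 and 13.6 and 19.8 CPM in vehicle (−2.51 ± 0.743, edgeR adjusted p = 0.0220), and Cenpa had 14.1, 13.0 and 7.98 CPM in T-DM1 and 36.6 and 25.2 CPM in vehicle (−1.40 ± 0.475, edgeR adjusted p = 0.0397). Neither call held in every setting: on TPM the sign of Cenpa turned, and the adjusted p of Spc25 reached 0.275 in limma on log2(TPM + 0.1). The count was 0 without T-DM1 library 3, where 21.2% of all genes were called. It was 1 without T-DM1 library 1 or 2, where 23.8% and 31.2% of all genes were called. The member median was −0.03 without vehicle library 2 and 0.12 without vehicle library 1.

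Some of the genes that fell under mobocertinib had T-DM1 values around those of vehicle. Ccnb1 had 8.40, 4.64 and 4.68 CPM in T-DM1 and 5.52 and 6.09 CPM in vehicle (0.02 ± 0.607), and Tpx2 had 16.7, 10.2 and 9.94 CPM and 12.5 and 11.5 CPM in the same groups (0.03 ± 0.519). The largest positive changes were in cytokinesis and passenger complex genes, though both roles were split. Birc5 of the passenger complex changed by −1.50 and Prc1 of cytokinesis by −0.22, and neither was called. Kif20a, a kinesin of the cleavage furrow, had 14.1, 8.48 and 12.02 CPM in T-DM1 and 5.28 and 4.83 CPM in vehicle, with no overlap (1.19 ± 0.513, edgeR adjusted p = 0.0921). Anln, the actin-binding scaffold anillin, had 21.7, 8.48 and 12.8 CPM in T-DM1 and 6.54 and 3.94 CPM in vehicle (1.45 ± 0.691, edgeR adjusted p = 0.124). A p that misses the threshold does not show that the groups are alike. From log2(TPM + 1), 19 of 38 members were called higher and 0 lower in T-DM1, where 60.9% of all genes were called in either direction. The member median was 1.08 beside 1.17 over all genes. With length and GC correction 5 were called lower, against 16.5% of all genes. DESeq2 called 3 lower and Kif20a higher, against 16.9% and 20.9% of its genes.

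T-DM1 against mobocertinib compares the drugs without the vehicle libraries as a reference. All 39 fold changes were positive, with a median of 2.36 and a range of 0.93 to 3.43, where the median of all tested genes was 0.01. Cdc20 was the one member called higher and 0 were called lower, where 0.0223% of all genes were called higher, 0.00558% lower and 0.0279% in either direction. Of the 17933 tested genes, 1714 had an unadjusted p under 0.05, and 38 members did. In those 38 genes every T-DM1 library was above every mobocertinib library, as in 9.64% of all tested genes (9.32% lay wholly below), with Spc25 as the exception. DESeq2 called 33 members higher, against 1.82% of the genes it tested. Cdc20 had 18.2, 17.3 and 14.85 CPM in T-DM1 and 2.29, 3.76 and 1.88 CPM in mobocertinib, 6.33-fold higher (2.66 ± 0.349, edgeR adjusted p = 0.0242). This call was lost without mobocertinib 1 or 3, T-DM1 1 or 3, or both vehicle libraries, or when the 2 groups were fitted alone; over all alternatives the adjusted p ran between 1.34e-11 (DESeq2) and 0.232, and the fold change was positive in each.

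The cyclin B genes were among those with the largest differences between the drugs. Ccnb1 had 8.40, 4.64 and 4.68 CPM in T-DM1 and 0.349, 0.923 and 0.356 CPM in mobocertinib (3.43 ± 0.605, unadjusted p = 8.03e-05, edgeR adjusted p = 0.117). Hmmr, a spindle protein, differed by 3.18 ± 0.753 and Ccnb2 by 3.14 ± 0.614, and neither passed adjustment in edgeR. Mki67 had 38.6, 20.8 and 23.9 CPM in T-DM1 and 1.54, 6.97 and 2.24 CPM in mobocertinib (2.95 ± 0.626, edgeR adjusted p = 0.157). Every role shared this: role medians lay between 2.21 for the kinetochore genes and 2.84 for Cdc20 with Ube2c. Spc25 was the smallest difference, with 3.61, 3.47 and 1.69 CPM in T-DM1 and 0.996, 2.77 and 0.818 CPM in mobocertinib (0.93 ± 0.677, edgeR adjusted p = 0.733). Epithelial markers were higher in T-DM1 for 5 of 6 genes and lower for 1 (median 0.70), with sums of 4710 to 5570 CPM in T-DM1 and 1500 to 3070 CPM in mobocertinib. B cell (4 of 4, median 2.035), T cell (6 of 6, 0.87) and fibroblast markers (4 of 4, 0.85) were also higher. Erythroid markers were lower for 3 of 3 (median −0.56). The library sums of these 4 lists overlapped between the groups. The part of any marker list in the result was not tested.

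**Figure D3:**
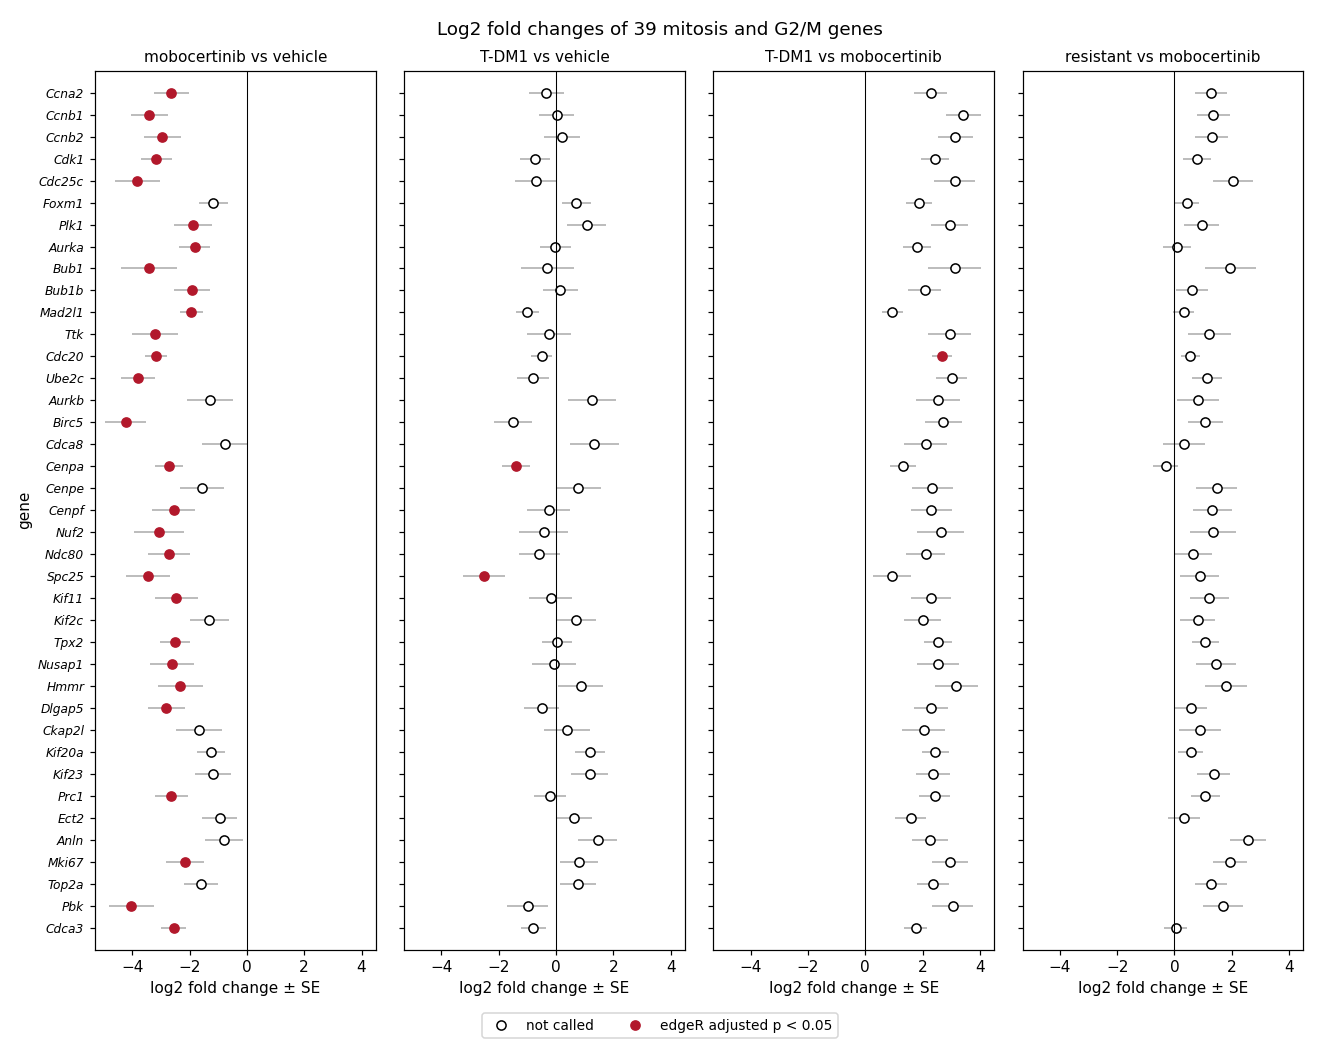
Log2 fold change ± SE of the 39 genes in 4 comparisons, with filled points for an edgeR adjusted p below 0.05. Mobocertinib against vehicle has 28 filled points and all 39 to the left of 0, T-DM1 against vehicle has 2 and straddles 0, and T-DM1 against mobocertinib has all 39 to the right of 0 with Cdc20 filled; against vehicle the points would lie further right on TPM.

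The combination asks what both drugs do together. Against vehicle, 18 members were called lower and 0 higher, where 17.4% of all genes were called lower and 35.0% in either direction, with a median of −1.70 (all tested genes 0.08). In 28 genes every combination library was below vehicle, as in 29.9% of all genes. DESeq2 called 23 lower and 0 higher, against 19.3% and 19.9% of its genes. All 18 were among the 28 called for mobocertinib, in a comparison that shares the vehicle libraries. Cdc20 had 4.425, 2.91 and 3.72 CPM in the combination and 24.2 and 23.3 CPM in vehicle (−2.69 ± 0.369, edgeR adjusted p = 0.000321), and Birc5 had 3.53, 3.31 and 3.50 CPM and 18.2 and 34.3 CPM in the same groups (−2.93 ± 0.670, edgeR adjusted p = 0.00559). In both genes the combination libraries were close together and below vehicle. Without combination library 2, 9 members were called, where 28.3% of all genes were called in either direction. Without vehicle library 2 the member median was −1.82, and without vehicle library 1 it was −1.39. Log2(TPM + 1) left 1 call, where 60.1% of all genes were called, with medians of 0.004 over members and 1.18 over all genes.

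Against T-DM1 alone, the combination was lower in all 39 genes, with a median of −1.69, and none was called by edgeR (0% of all genes either). An unadjusted p under 0.05 was found for 31 of them and for 915 of the 17933 tested genes. DESeq2 called 8 lower, against 0.336% of its genes. In 37 genes all combination libraries were below all T-DM1 libraries, as in 7.81% of all genes (8.41% lay wholly above), and the exceptions were Spc25 and Anln. The 8 genes called by DESeq2 were Cdc20, Kif20a, Ccnb1, Plk1, Ccnb2, Ube2c, Cdca3 and Cdk1. Cdc20 had 4.425, 2.91 and 3.72 CPM in the combination and 18.2, 17.3 and 14.85 CPM in T-DM1 (−2.19 ± 0.342, edgeR adjusted p = 0.226, DESeq2 adjusted p = 1.17e-07). Kif20a had 3.94, 2.13 and 2.03 CPM in the combination and 14.1, 8.48 and 12.02 CPM in T-DM1 (−2.10 ± 0.458, edgeR adjusted p = 0.455, DESeq2 adjusted p = 0.000870).

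Against mobocertinib alone, the combination was a little higher in 38 of 39 genes, with a median of 0.76. No member was called by edgeR or DESeq2 (0% of all genes by edgeR and 0.00330% by DESeq2). An unadjusted edgeR p under 0.05 was found for 1 member and for 262 of the 17933 tested genes. Groups did not overlap in 3 genes (Cdc25c, Birc5 and Kif11, all higher in the combination), as in 3.49% of all genes (3.21% lay wholly below). Birc5 had 3.53, 3.31 and 3.50 CPM in the combination and 0.548, 2.66 and 0.960 CPM in mobocertinib (1.30 ± 0.614, edgeR adjusted p = 1.0). Without mobocertinib library 1 the median difference over members was 0.45, and without mobocertinib library 2 it was 1.24.

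Resistant against mobocertinib asks how nodules that acquired resistance differ from those under the drug. Levels were higher in resistant nodules for 38 of 39 genes, with a median of 1.08 (all tested genes 0.07), and Cenpa was lower (−0.30 ± 0.437). No member was called by edgeR (0% of all genes were called higher, and 0.00558% lower, which was also the share in either direction). An unadjusted p under 0.05 was found for 13 members and for 1394 of the 17933 tested genes. DESeq2 called 1 member higher, Anln, against 0.111% of its genes. Groups did not overlap in 4 genes (Cdc25c, Ttk, Tpx2 and Anln), all higher in resistant nodules, as in 4.33% of all genes (5.75% lay wholly below). Markers of stromal cells also differed, with the highest sums in resistant library 1. Smooth muscle markers were higher in resistant nodules for 3 of 3 genes (median log2 fold change 1.83). Their sums were 1320, 225 and 213 CPM in resistant libraries 1 to 3 and 87.7 to 214 CPM in mobocertinib libraries. Fibroblast markers were higher for 4 of 4 (median 1.58), with sums of 2380, 343 and 232 CPM and 261 to 456 CPM in the same groups. Neutrophil markers were lower for 4 of 4 (median −1.25). Their sums were 32.1, 59.2 and 9.26 CPM in resistant and 258, 40.3 and 33.7 CPM in mobocertinib libraries 1 to 3. In each of these lists the sums overlapped between the groups. No marker of these lists passed adjustment in edgeR or was at 0 in a whole group, and their part in the result was not tested. The median difference of the members was 0.51 without resistant library 2 and 1.77 without mobocertinib library 2. Anln (chromosome 9, 22332012 to 22389188, mm10) had 8.73, 18.8 and 26.1 CPM in resistant libraries and 1.89, 3.69 and 3.38 CPM in mobocertinib, 5.96-fold higher (2.57 ± 0.622, edgeR adjusted p = 0.622, DESeq2 adjusted p = 0.0170). Mki67 had 13.8, 22.3 and 5.04 CPM in resistant nodules and 1.54, 6.97 and 2.24 CPM in mobocertinib, with overlap (1.93 ± 0.604, edgeR adjusted p = 0.622). Cdc20 stayed low, at 4.91, 4.15 and 2.625 CPM in resistant nodules and 2.29, 3.76 and 1.88 CPM in mobocertinib (0.56 ± 0.334, edgeR adjusted p = 0.642).

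Against vehicle, 16 members were lower in resistant nodules and 0 were called higher, where 19.0% of all genes were called lower, 22.0% higher and 41.0% in either direction, with a median of −1.42 (all tested genes 0.18). In 24 genes every resistant library was below vehicle and in 1 above, as in 25.6% and 28.8% of all genes. DESeq2 called 18 lower and 1 higher, where 44.6% of its genes were called in either direction. All 16 were also called in the mobocertinib and combination comparisons, which share the vehicle libraries. Cdc20 changed by −2.61 ± 0.368 (edgeR adjusted p = 0.000232) and Cenpa, with 4.62, 3.78 and 3.04 CPM in resistant nodules and 36.6 and 25.2 CPM in vehicle, by −3.02 ± 0.491 (edgeR adjusted p = 0.000518). Anln was the one gene with all resistant libraries above vehicle (6.54 and 3.94 CPM), at 1.77 ± 0.701 (edgeR adjusted p = 0.0594, DESeq2 adjusted p = 0.0188). Mki67, with 13.8, 22.3 and 5.04 CPM in resistant nodules and 13.8 and 18.4 CPM in vehicle, was not separated (−0.23 ± 0.646, edgeR adjusted p = 0.793). When the 2 groups were fitted alone, 6 members were called, where 20% of all genes were called in either direction. Without vehicle library 2 the member median was −1.40, and without vehicle library 1 it was −1.08. From log2(TPM + 1), 4 members were called, of which 2 were higher, where 64.4% of all genes were called. The member median there was 0.13 against 1.27 for all genes.

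The resistant libraries differed among themselves. Resistant library 3 was the lowest of the group for 37 genes, and resistant library 2 exceeded both others for 28. In library 3, Bub1 had 0.154 CPM, while libraries 1 and 2 had 0.982 and 2.45 CPM. The 2 genes that did not follow were both of cytokinesis: Anln, with its highest value of all 14 libraries there, and Kif23, a motor of the central spindle, with 5.64, 10.1 and 14.3 CPM in resistant libraries 1 to 3. Marker sums also differed within the group, with 2380 CPM of fibroblast markers (4 of 4 above 0) in library 1 against 343 and 232 CPM in the others, and 7.77 CPM of T cell markers in library 3 against 69.8 and 26.8 CPM. Their part in the members' spread was not tested.

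Other groups also held 1 library apart. T-DM1 library 1 was the highest T-DM1 library for 37 members, and mobocertinib library 2 the highest of its group for 38. T-DM1 library 1 also had the highest B cell marker sum, 185 CPM, against 24.7 and 12.4 CPM in the other T-DM1 libraries, and the part of those cells was not tested. Even this library-to-library spread left mobocertinib library 2 below every T-DM1 library for 38 genes. In vehicle, library 1 was over 2-fold above library 2 for 11 genes, and the reverse held for 2.

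**Figure D4:**
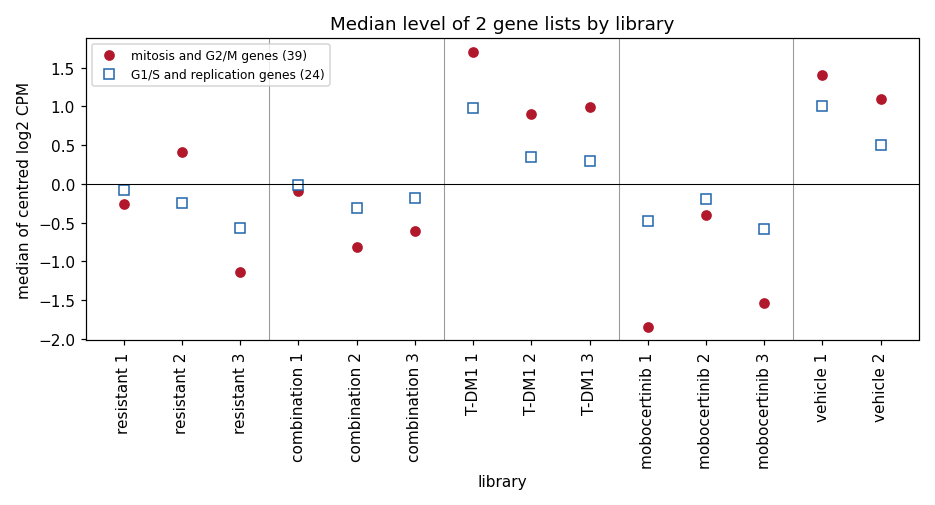
Median, in each library, of gene levels (log2 CPM, centred on each gene's mean) for the 39 mitosis and G2/M genes (filled) and for 24 G1/S and replication genes (open squares). The mitotic median runs between −1.84 in mobocertinib library 1 and 1.71 in T-DM1 library 1, and the G1/S median covers a smaller range, with resistant library 2 at 0.41 for mitotic and −0.25 for G1/S genes; the vehicle points depend on the scaling.

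Genes of DNA replication and the G1/S step were also lower in mobocertinib than in vehicle nodules. Of 24 such genes, 12 were called lower and 0 higher in mobocertinib against vehicle (16.1% and 16.8% of all genes), with a median of −1.29, beside −2.55 for the mitotic genes. In T-DM1 against vehicle 1 was called lower (14.9% of all genes), with a median of −0.25, beside −0.07 for the mitotic genes. Rrm2, a subunit of ribonucleotide reductase, averaged 3.08 ± 1.06 CPM in mobocertinib (SD, n = 3) and 23.8 CPM in vehicle (n = 2), a change of −2.94 ± 0.544 (edgeR adjusted p = 0.00188). In T-DM1 against mobocertinib all 24 were positive with a median of 0.99 and 18 lay wholly above (9.64% of all genes). None was called by edgeR, with 13 at an unadjusted p under 0.05, beside 1714 of the 17933 tested genes. Resistant against mobocertinib had a G1/S median of 0.04, beside 1.08 for the mitotic genes, in lists that were not tested against each other.

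Other mitotic genes gave the following counts in mobocertinib against vehicle, where 16.1% of all genes were called lower and 16.8% higher. Among 24 further spindle, cytokinesis and mitotic kinase genes, 6 were lower and 0 higher (median −1.58), led by Tacc3, which stabilizes spindle microtubules, at −1.82 ± 0.347 (edgeR adjusted p = 0.00223), and Kif15, a spindle motor, at −3.85 ± 0.778 (edgeR adjusted p = 0.00305). Among 23 other kinetochore genes, 9 were lower and 1 higher (median −1.36). Spc24, the direct partner of Spc25, averaged 2.37 ± 0.453 CPM in mobocertinib (SD, n = 3) and 18.9 CPM in vehicle (−2.99 ± 0.427, edgeR adjusted p = 0.000470). The higher gene was Mad1l1, the Mad2 anchor at kinetochores, at 2.28 ± 0.372 (edgeR adjusted p = 0.000934). Of 12 condensin, cohesin and separase genes, 1 was lower, Cdca5 (sororin, which protects cohesin), at −2.41 ± 0.691 (edgeR adjusted p = 0.0184), and 0 higher, a share of calls under that of all genes.

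Counts called among regulators of the mitotic genes are read against the same shares of all genes, 16.1% lower and 16.8% higher, and those of the MuvB, MYB and E2F genes called higher and of the brakes in both directions were close to them. Of 15 anaphase-promoting complex genes, 5 were lower and 2 higher in mobocertinib against vehicle, and Cdc26 and Anapc13, core subunits, changed by −1.36 ± 0.217 and −1.36 ± 0.292 there and by −1.40 ± 0.217 and −2.03 ± 0.294 in T-DM1 against vehicle, a comparison with the same vehicle libraries. Of 17 MuvB, MYB and E2F genes, 3 were higher and 1, Rbbp4, was lower (−0.78 ± 0.193, edgeR adjusted p = 0.00902). Rb1, the retinoblastoma protein that restrains E2F, averaged 21.1 ± 3.999 CPM in mobocertinib (SD, n = 3) and 4.21 CPM in vehicle (2.33 ± 0.430, edgeR adjusted p = 0.00188), and Rbl2, a subunit of the repressing DREAM complex, rose by 1.21 ± 0.228 (edgeR adjusted p = 0.00210). Among 11 brakes on the cycle, 2 were higher and 2 lower, with Cdkn1c, a CDK inhibitor, at 57.7 ± 14.6 CPM in mobocertinib and 11.95 CPM in vehicle (2.27 ± 0.471, edgeR adjusted p = 0.00352). Pkmyt1 was called lower (−1.66 ± 0.473, edgeR adjusted p = 0.0179). Rb1 and Cdkn1c were also called higher in T-DM1 (1.75 ± 0.419 and 1.60 ± 0.457), in the combination and in resistant nodules, each against the same vehicle libraries.

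Transcript length moved with the changes against vehicle, least in T-DM1, and with those of the combination against T-DM1. In mobocertinib against vehicle, 14 members with a longest transcript under 3 kb had a median of −3.06 and 8 of at least 4.5 kb a median of −1.77. In T-DM1 against vehicle, the same classes had medians of −0.30 and 0.73. In T-DM1 against mobocertinib these medians were closer, at 2.80 and 2.29, and in combination against T-DM1 they were −1.82 and −1.47. The Spearman correlation of length and change was 0.36, 0.20, 0.40 and 0.42 in mobocertinib, T-DM1, combination and resistant nodules against vehicle. It was 0.34 in combination against T-DM1, −0.24 in T-DM1 against mobocertinib, and 0.06 and 0.10 in combination and resistant nodules against mobocertinib. Correction for length and GC content moved the longest genes most: Mki67, of 10061 bases, had −3.55 in place of −2.16 in mobocertinib against vehicle and −0.67 in place of 0.79 in T-DM1 against vehicle. Foxm1, Cenpe, Kif20a and Top2a passed in mobocertinib against vehicle only after correction, and Plk1 passed only without it.

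**Figure D5:**
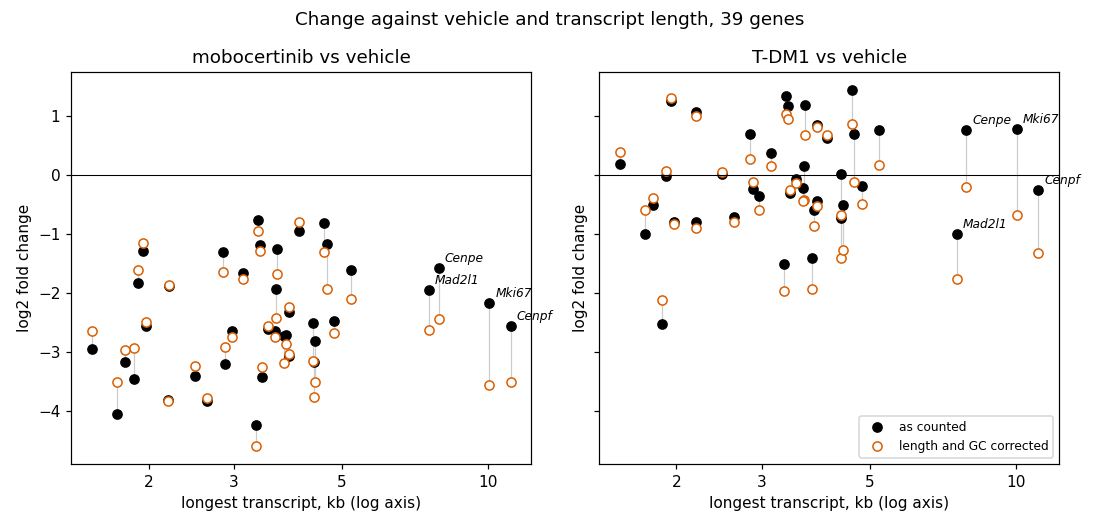
Log2 fold change against vehicle and length of the longest transcript (kb, log axis) for the 39 genes, as counted (filled) and after correction for length and GC content in each library (open), joined by a line per gene. Correction lowers the values of the longest genes, Mki67, Cenpe, Cenpf and Mad2l1, in both comparisons, and all 39 mobocertinib values stay below 0; on TPM most points would be higher.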

How the data were processed

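Total RNA of lung tumor nodules was sequenced in 14 libraries. The first deposited table holds whole-number counts for 55291 gene symbols (24822 at 0 throughout); the authors' second table holds TPM, scaled by them for length and library size. STAR, RSEM and mm10 are named, per the submitters' processing notes; the sources used here do not state their roles, versions, annotation or strand setting. All columns matched a sample by title, and 0 per-sample columns were unused. Replicate numbers follow accession order. All 13 within-group library pairs differed by more than counting error (87.9 to 504 chi-square units per degree of freedom).

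Counts were fitted in edgeR 4.0.16 (R 4.3.3) with TMM factors, filterByExpr with the group, and its quasi-likelihood F-test (robust), in 1 fit over 14 libraries and 17933 genes with group means (9 residual degrees of freedom). A gene is called at an adjusted p below 0.05 (Benjamini-Hochberg, over all genes). A fold change is a log2 difference, the first-named group minus the second, ± SE (its size over the square root of F); CPM are TMM-normalized. The procedure was tested on simulated data. There were 8 comparisons. The 4 against vehicle share its 2 libraries, and others share drug groups, so they are not independent. Transcript lengths, overlaps and coordinates are from GENCODE M21 (mm10), promoters from RefSeq.

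Members and lists were chosen with earlier results of these data known. All 39 members are reported by role; other lists are given by counts, with up to 3 called genes of smallest p named. Alternatives were RLE and upper-quartile factors, no filter beyond 1 count, DESeq2 1.42.0, the compared groups alone, limma 3.58.1 on log2(TPM + 1) and log2(TPM + 0.1) where at least 2 libraries reached a TPM of 1, length and GC offsets (splines, 5 degrees of freedom, 17565 genes), each library left out and, added after seeing the data, both vehicle libraries left out. Depth limits precision for scarce members: counts ran between 1 and 213 in mobocertinib, with 18 of 117 values under 10, and between 31 and 909 in T-DM1.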

Additional observations from a re-analysis of the deposited data

How the results depend on the processing

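No paired analysis was possible because the labels give no replicate numbers or pairing. Members called were 28, 2, 18 and 16 for mobocertinib, T-DM1, combination and resistant nodules against vehicle, 1 for T-DM1 against mobocertinib, and 0 in the other 3 comparisons. RLE and upper-quartile factors kept each within 1.5 times. With no filter beyond 1 count, T-DM1 against vehicle had 1 (16.2% of all genes) and T-DM1 against mobocertinib 2 (0.0361%). Length and GC correction gave 5 in T-DM1 against vehicle (24.4% of all genes). DESeq2 gave 4 in T-DM1 against vehicle (37.9% of its genes) and 33 in T-DM1 against mobocertinib (2.27%). It gave 8 in combination against T-DM1 (0.380%) and 1 in resistant against mobocertinib (0.216%). With the compared groups alone, resistant against vehicle had 6 (20% of all genes) and T-DM1 against mobocertinib 0, which was also 0 without vehicle in the fit. Log2(TPM + 1) gave 6, 19 (all higher), 1 and 4 against vehicle in that order, where 58.1%, 60.9%, 60.1% and 64.4% of all genes were called. It gave 3 in T-DM1 against mobocertinib (0.0761% of all genes). Log2(TPM + 0.1) gave 7, 18 (all higher), 1 (higher) and 3 against vehicle, where 62.8%, 65.6%, 64.5% and 67% of all genes were called. On TPM the median of all genes against vehicle moved to between 1.11 and 1.77. Leaving out 1 drug-treated library gave 17 to 30 in mobocertinib (22.8% to 27.5% of all genes) and 0 to 1 in T-DM1 (21.2% to 31.2%) against vehicle. It gave 9 to 15 in combination against vehicle (23.8% to 28.3%). Leaving out 1 resistant library gave 11 to 22 in resistant nodules against vehicle (37.3% to 41%). Any such omission gave 0 to 1 in T-DM1 against mobocertinib and 0 in the other 3. Where 1 vehicle library is left out, the other is assumed to vary like the other groups. Of 844 values of single called genes, 596 kept their call, 228 lost it and 20 changed sign, all of these from TPM. With pseudocounts 1 and 0.1 these were Aurka in mobocertinib (0.17 and 0.42), Cenpa in T-DM1 (0.29 and 0.31), Ccna2 (0.060 and 0.075), Ccnb1 (0.16 and 0.27), Aurka (0.38 and 0.71) and Tpx2 (0.20 and 0.28) in the combination, and Ccnb1 (0.17 and 0.23), Ccnb2 (0.055 and 0.018), Aurka (0.21 and 0.48) and Tpx2 (0.37 and 0.57) in resistant nodules, each against vehicle. Birc5, Cdc20, Cdk1, Pbk, Spc25 and Ube2c were called lower in mobocertinib against vehicle in every alternative run, and Cenpa in resistant against vehicle. With 2 or 3 libraries a group and under 10 counts for 18 of 117 mobocertinib values, small differences between drug groups were not detectable.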
